A study of Ictalurus punctatus with 24 samples.

Results

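The intestine RNA libraries of channel catfish (Ictalurus punctatus) were divided into 2 sets of 6, anterior-like and posterior-like, which were chosen by the read count of a single gene. That gene was mogat2 (chr16:4905399-4911537 of the Coco_2.0 genome), which encodes monoacylglycerol acyltransferase 2, an enzyme that rebuilds fat in absorptive cells of the gut. The 6 libraries with 250 CPM or more (a count scaled by the total of its library) were called anterior-like, and the 6 libraries under 200 CPM posterior-like, so that all 12 intestine libraries of the 24 in the series were members. The labels give no intestinal segment. The names anterior-like and posterior-like rest only on marker genes known from other animals.

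The study fed catfish for 10 weeks a control diet without frass, a low-frass diet (50 g per kg) or a high-frass diet (300 g per kg), frass being the residue left by black soldier fly larvae. Intestine and liver were each sequenced in 4 pooled replicates per diet. The labels give pools of 3 fish, the study's methods give another pool size, and neither says which stretch of gut was taken. The anterior-like set held low-frass replicates 1, 2 and 4, high-frass replicate 4 and control replicates 2 and 3. The posterior-like set held low-frass replicate 3, high-frass replicates 1, 2 and 3 and control replicates 1 and 4. The diets were thus spread 2 and 2 (control), 3 and 1 (low-frass) and 1 and 3 (high-frass) over the anterior-like and posterior-like sets, a makeup in which no dependence on diet was detectable with 4 libraries a diet (Fisher-Freeman-Halton exact test, two-sided, p = 0.766). Each library held RNA of a pool, so the spread between libraries is a spread between pools, and in such bulk samples fewer cells of a type and less RNA per cell cannot be told apart.

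Library totals ran from 12534783 to 17371695 counts in the anterior-like set and from 12868684 to 17338802 in the posterior-like set, and between 14951 and 17466 features received a count. By the selecting measure, mogat2 stood at 347 to 507 CPM in the anterior-like libraries (mean 388 ± 61.3, SD, n = 6) and at 79.7 to 148 CPM in the posterior-like libraries (mean 119 ± 26.6, SD, n = 6). The library just inside the upper limit was low-frass replicate 1, at 347 CPM, and the one just outside was high-frass replicate 2, at 148 CPM. These values made the sets and are given as a description. The same holds for every gene compared between the sets in the same libraries, so that no test is given for any of them. Among the anterior-like libraries 4 held many transcripts of the exocrine pancreas and control replicate 3 was intermediate for some of the genes, and outside the intestine low-frass liver replicate 3 went against its label. The values behind each are given further on.

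The gut of fishes is regionalised from front to back. In zebrafish, the front of the intestine carries most of the uptake of fat, sugar, peptides and vitamin A, whereas the mid-posterior part contains lysosome-rich enterocytes, cells that engulf whole proteins and break them down, together with cells that recover bile acids. The Hox genes, transcription factors numbered by their place in clusters along the chromosome, mark position along the body axis, with the highest numbers used furthest to the rear.

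A feature (1 annotated transcript) was called apart where its fold change, fitted by edgeR with diet as a covariate, exceeded 2 and the 6 anterior-like values did not overlap the 6 posterior-like values. Of the 10742 features measured well enough to fit, 593 (5.52%) were apart and higher in the anterior-like libraries, and 691 (6.43%) were apart and lower. The libraries were divided beforehand by one of these genes, so the counts describe the size of the division and show nothing more. The higher features had a median log2 fold change of 1.95 and took up 27.5% of the counts in anterior-like libraries, against 7.59% in posterior-like libraries. The lower features had a median of -1.77 and took up 2.38% of the counts in anterior-like libraries, against 13.6% in posterior-like libraries. In single libraries the share held by the higher features was 22.9 to 33.1% in the anterior-like set and 6.33 to 8.79% in the posterior-like set. From here on, levels are CPM scaled by the TMM method and fold changes are on the log2 scale, anterior-like over posterior-like, with their standard error (SE).

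**Figure D1:**
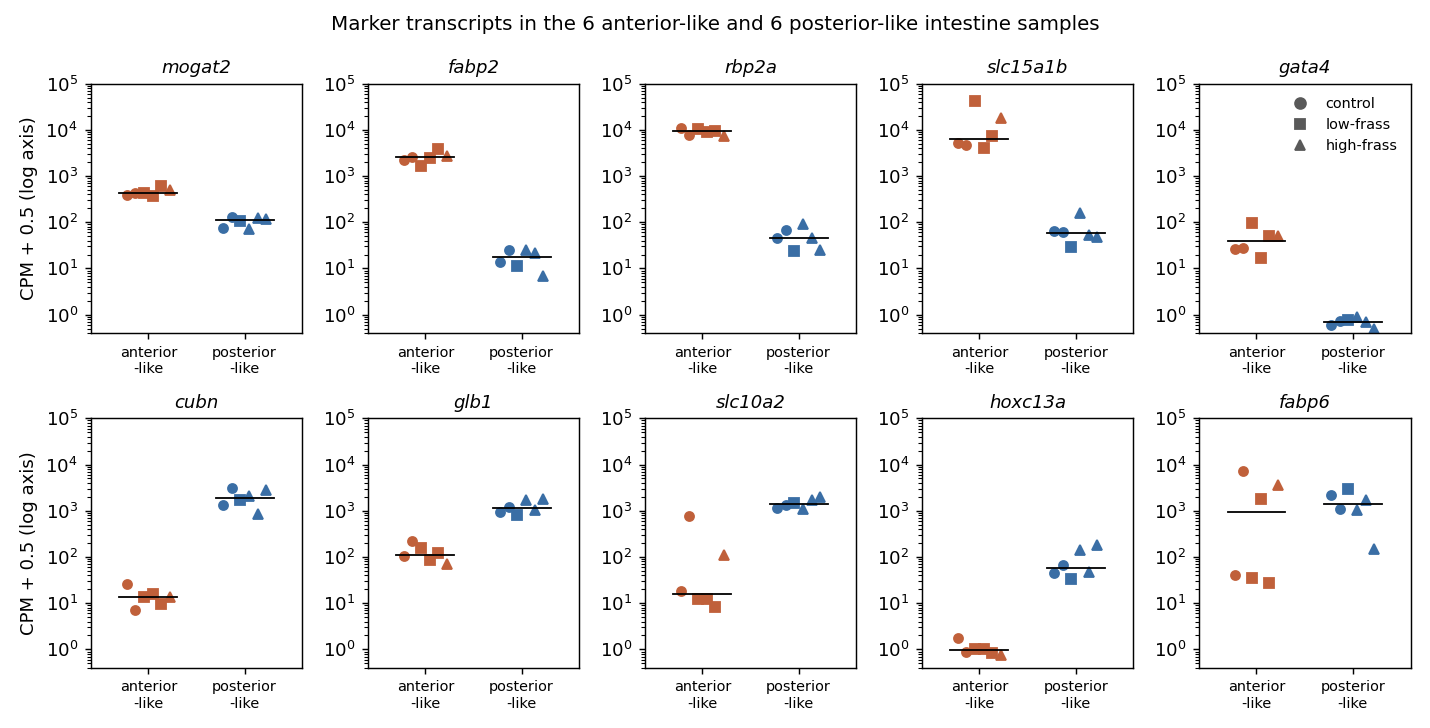
CPM on a log axis (0.5 added) of marker genes in each of the 12 intestine libraries, 1 point per library. Circles are control, squares low-frass and triangles high-frass libraries, anterior-like on the left and posterior-like on the right of each gene. The 6 fabp2 points of the anterior-like set lie between 1621 and 3931 CPM and those of the posterior-like set between 6.46 and 24.3 CPM, whereas the order is turned round for cubn, at 6.71 to 25.6 and 867 to 3093 CPM.

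Genes of fat absorption and chylomicron assembly, the packaging of dietary fat for the blood, were higher in the anterior-like libraries in 17 of 29 features tested and lower in none, with a list median of 1.56 against -0.00 over all features. Fabp2 (chr29:16285982-16290371), a fatty acid binding protein of absorptive cells, lay between 1621 and 3931 CPM (median 2554) in the anterior-like libraries and between 6.46 and 24.3 CPM (median 16.9) in the posterior-like libraries. The sets did not overlap, and the log2 fold change was 7.38 (SE 0.44). The fatty acid receptor gene cd36 (chr19:25452945-25474524) showed the same division, at 1894 to 3251 CPM (median 2115) in the anterior-like and 8.0 to 26.8 CPM (median 16.9) in the posterior-like libraries, a log2 fold change of 7.12 (SE 0.45). Genes of cholesterol uptake and storage were among the members apart. Npc1l1, the cholesterol transporter of the brush border, had 646 to 1541 CPM in the anterior-like and 3.33 to 58.8 CPM in the posterior-like libraries. Soat2, which esterifies cholesterol, had 523 to 714 CPM in the anterior-like and 3.13 to 34.8 CPM in the posterior-like libraries. Dgat2, which makes triglyceride, stood at 99.0 to 320 CPM in the anterior-like set and at 1.23 to 11.3 CPM in the posterior-like set. Apolipoprotein gene apoa1a was higher as well, with a log2 fold change of 6.90 and levels of 370 to 2873 CPM in anterior-like against 4.31 to 12.8 CPM in posterior-like libraries. With each library left out in turn the fold change of apoa1a was 6.33 (without low-frass replicate 3) to 7.51 (without high-frass replicate 4). Low-frass replicate 3 was the only posterior-like low-frass library, and high-frass replicate 4 the only anterior-like high-frass one. Without either, here and below, the diet-adjusted fold changes rest on the other diets alone.

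The step that loads lipid onto apolipoprotein B was less divided. Mttp, the microsomal transfer protein, stood at 468 to 1155 CPM in the anterior-like and 138 to 333 CPM in the posterior-like libraries (log2 fold change 1.84), so the sets did not overlap but both expressed it. For apoba, an apolipoprotein B gene, the sets overlapped, with 800 to 2220 CPM in the anterior-like and 217 to 982 CPM in the posterior-like libraries. Mogat2 itself, the selecting gene, had a log2 fold change of 2.12 (SE 0.22), which is smaller than that of fabp2 or cd36. Together the listed fat genes summed to 15292 to 22405 CPM in the anterior-like libraries and 4512 to 6246 CPM in the posterior-like libraries.

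Sugar handling was divided in the same direction, in 6 of 8 features tested, with none lower and a list median of 2.56. The sodium-glucose transporter slc5a1, which takes glucose up from the lumen, had 3096 to 4490 CPM (median 3759) in the anterior-like and 472 to 2781 CPM (median 1026) in the posterior-like libraries, a log2 fold change of 2.1 (SE 0.32). Its highest posterior-like value, in high-frass replicate 3, came close to the anterior-like range. Slc2a2, the transporter through which glucose leaves the cell, was further apart, at 240 to 374 CPM in the anterior-like and 2.72 to 45.5 CPM in the posterior-like libraries (log2 fold change 4.68, or 3.99 without low-frass replicate 3 and 5.51 without control replicate 4). Treh, the enzyme trehalase, which splits trehalose, had 208 to 453 CPM in the anterior-like and 0.99 to 12.3 CPM in the posterior-like libraries. For g6pc1a.2, a glucose-6-phosphatase that frees glucose inside the cell, the anterior-like libraries had 534 to 3664 CPM and the posterior-like libraries 7.02 to 25.2 CPM, a log2 fold change of 6.33 (SE 0.69) that was 5.65 without low-frass replicate 3 and 6.94 without high-frass replicate 4.

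Peptide digestion and amino acid transport showed 12 of 18 features higher and none lower, with a list median of 2.18. The peptide transporters were among the genes furthest apart. Slc15a1a (chr6:24802882-24813926) had 2097 to 6328 CPM (median 4127) in the anterior-like libraries and 9.15 to 41.2 CPM (median 15.2) in the posterior-like libraries, a log2 fold change of 7.71 (SE 0.58). Its paralogue slc15a1b had 4137 to 41534 CPM (median 6227) in the anterior-like and 29.2 to 155 CPM (median 57.3) in the posterior-like libraries, a log2 fold change of 7.45 (SE 0.78). The anterior-like values of slc15a1b were themselves uneven, because low-frass replicate 1 (41534 CPM) and high-frass replicate 4 (17642 CPM) exceeded the other 4 libraries, which reached at most 7366 CPM. Mep1ba, a meprin protease of the brush border, had the largest log2 fold change (8.05, SE 1.07) among the features that were apart and averaged 50 CPM or more, with 134 to 3845 CPM in anterior-like and 0.531 to 7.56 CPM in posterior-like libraries. The fold change of mep1ba was 6.34 without high-frass replicate 4 and 8.66 without control replicate 4.

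Ace (chr13:7530907-7556527), a peptidase of the brush border, had 3288 to 15713 CPM in the anterior-like and 24.2 to 89.5 CPM in the posterior-like libraries. The neutral amino acid transporter slc6a19a.2 stood at 1609 to 2506 CPM in the anterior-like and 19.9 to 51.6 CPM in the posterior-like libraries. Other peptidases differed less. The aminopeptidase gene anpepb.1 had 10261 to 22149 CPM in the anterior-like and 2835 to 4975 CPM in the posterior-like set (log2 fold change 1.80), and tmprss15, the enteropeptidase that activates trypsinogen, had 235 to 444 CPM against 33.4 to 87.0 CPM (2.56). The peptidase genes dpp4, enpep and xpnpep2 were not apart. The listed peptide genes summed to 39364 to 112793 CPM in the anterior-like libraries, against 6877 to 11196 CPM in the posterior-like libraries.

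Vitamin and mineral genes went both ways, with 5 of 24 features higher, 2 lower and a list median of 0.36. Rbp2a (chr20:7550767-7554443), the cellular retinol binding protein of enterocytes, reached 7403 to 11081 CPM (median 9312) in the anterior-like libraries and 23.4 to 89.8 CPM (median 45.9) in the posterior-like libraries, a log2 fold change of 7.63 (SE 0.43). Bco1l, a carotenoid oxygenase gene, was nearly uncounted in the posterior-like libraries, at 0.417 to 1.5 CPM, and had 109 to 265 CPM in the anterior-like libraries. The phosphate transporter slc34a2a had 602 to 3180 CPM in the anterior-like and 2.1 to 18.5 CPM in the posterior-like set. The 2 lower features of 24 lie near the share of 6.43% lower over all features tested, so they are given as single genes. Slc40a1, the iron exporter ferroportin, had 321 to 834 CPM in the anterior-like and 1722 to 4430 CPM in the posterior-like libraries, a log2 fold change of -2.40. Slc30a10, a manganese exporter in mammals, had 6.85 to 16.3 CPM in the anterior-like and 47.6 to 127 CPM in the posterior-like libraries, a log2 fold change of -3.33.

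**Figure D2:**
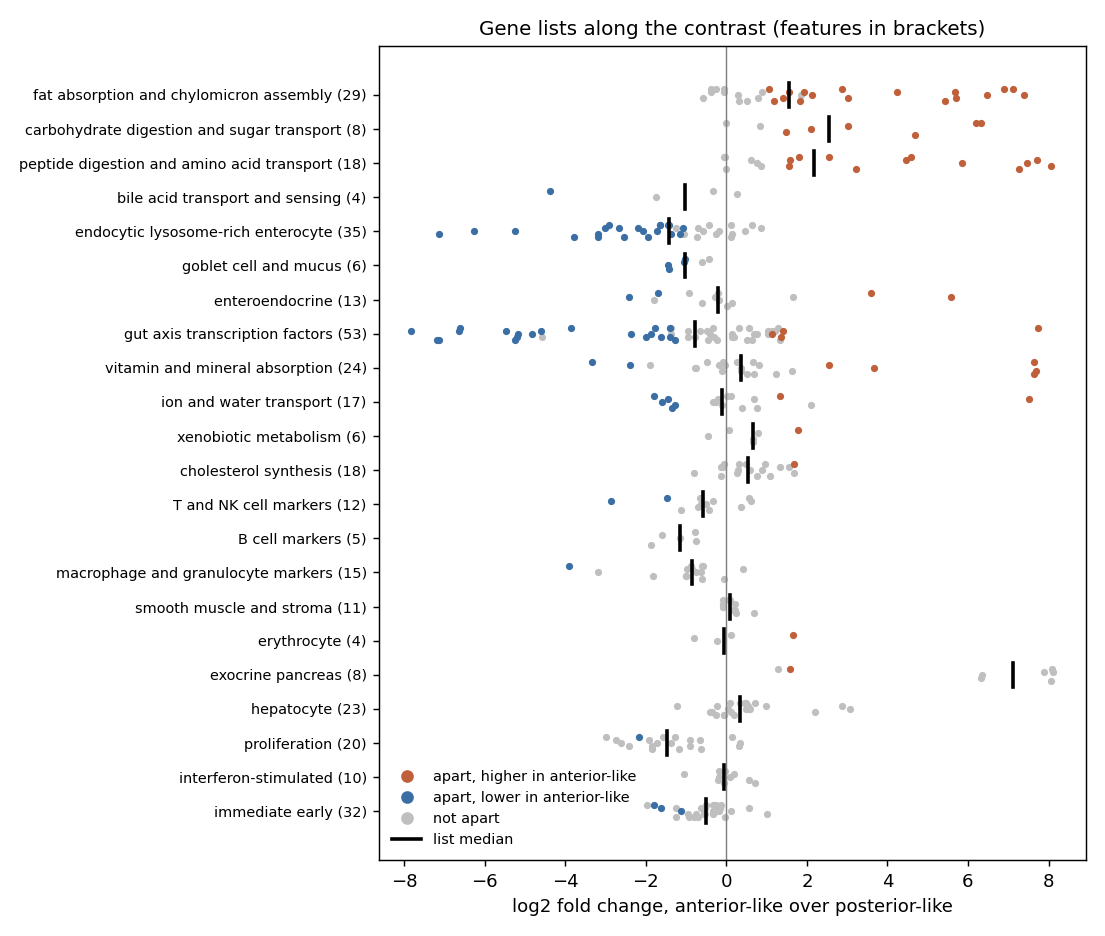
Log2 fold change, anterior-like over posterior-like, of the members of each gene list with 4 or more features tested. Each point is 1 feature, coloured where it was apart between the sets and grey where it was not, and the bar is the list median. The fat, sugar and peptide lists have medians of 1.56, 2.56 and 2.18, and the lysosome-rich enterocyte list one of -1.43.

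The endocytic and lysosomal list of lysosome-rich enterocytes had 21 of 35 features lower, the most of any list, with none higher and a median of -1.43. Cubn (chr1:19245145-19277287), the protein receptor cubilin, had 6.71 to 25.6 CPM (median 13) in the anterior-like libraries and 867 to 3093 CPM (median 1906) in the posterior-like libraries, a log2 fold change of -7.14 (SE 0.47). Its membrane anchor amnionless, encoded by amn, followed it, with 2.19 to 21.5 CPM in the anterior-like and 246 to 611 CPM in the posterior-like libraries (log2 fold change -6.27, or -5.65 without low-frass replicate 3). The sets did not overlap for either gene. Lysosomal glycosidases were lower as well. The beta-galactosidase gene glb1 had 71.1 to 220 CPM in the anterior-like and 828 to 1759 CPM in the posterior-like libraries, and naga, an alpha-N-acetylgalactosaminidase, had 163 to 313 CPM against 1238 to 1692 CPM. The alpha-mannosidase gene man2b1 stood at 308 to 908 CPM in the anterior-like and at 2304 to 4481 CPM in the posterior-like libraries. Of the proteases, ctsz (cathepsin Z) had a log2 fold change of -3.77, while ctsd (cathepsin D) was not apart, at 504 to 870 CPM in the anterior-like and 808 to 1214 CPM in the posterior-like libraries. Mamdc4, an endocytic receptor gene of the same cells in zebrafish, was not apart either, at 767 to 1402 CPM in the anterior-like and 430 to 1469 CPM in the posterior-like libraries. Dab2, hexa, hexb and lrp2a of the list received no count in any intestine library, which tells little here, since all 4 have more than 1 annotated transcript and such genes were hardly counted. The listed genes summed to 9276 to 14065 CPM in the anterior-like libraries and 21955 to 35132 CPM in the posterior-like libraries.

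Bile acid genes numbered 4 features tested, of which 1 was lower, or 2 without control replicate 3. Slc10a2 (chr6:18152868-18159115), the bile acid uptake transporter, had 7.90 to 772 CPM (median 15.0) in the anterior-like and 1098 to 1995 CPM (median 1415) in the posterior-like libraries, a log2 fold change of -4.37 (SE 1.04). Without control replicate 3 the value was -5.65, without low-frass replicate 3 it was -2.49, and without the diet term -3.19. Within the anterior-like set 4 libraries lay between 7.90 and 18.2 CPM, high-frass replicate 4 had 108 CPM, and control replicate 3 had 772 CPM. Fabp6 (chr18:14488141-14491253), the cytosolic bile acid binding protein, did not follow the division, at 27.4 to 7262 CPM (median 922) in the anterior-like and 149 to 2980 CPM (median 1376) in the posterior-like libraries, a log2 fold change of 0.27 (SE 1.21) whose sign turned without control replicate 3 (-0.90) and without high-frass replicate 4 (-0.56). Its highest value in all 12 libraries was that of control replicate 3.

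Among the 53 features of transcription factors with regional expression, 20 were lower, 4 were higher and the median was -0.77. With only features of at least 10 counts in every library, 5 of 24 were lower, 2 higher and the median was -0.23. Gata4 (chr2:7094202-7108325), a factor of the front of the intestine in mammals, had 16.3 to 97.1 CPM (median 38.3) in the anterior-like libraries and 0 to 0.392 CPM (median 0.196) in the posterior-like libraries, a log2 fold change of 7.73 (SE 0.57). Hnf4a, a factor of absorptive cells throughout the gut, differed less, at 315 to 590 CPM in the anterior-like and 138 to 213 CPM in the posterior-like libraries (log2 fold change 1.14). The gut identity genes cdx1a and cdx1b were expressed in all 12 libraries and were not apart, with log2 fold changes of -0.49 and -0.77. Cdx4 received 4 counts over the anterior-like set and 442 over the posterior-like set. Pdx1, a factor of the duodenum and the pancreas, was not apart, at 0.0673 to 5.68 CPM in the anterior-like and 0.224 to 0.980 CPM in the posterior-like libraries, and its highest values, 5.68 and 2.85 CPM, were those of low-frass replicate 1 and high-frass replicate 4.

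The 35 Hox features tested, from 34 of the 42 annotated Hox genes, were divided by paralogue number. Of the 19 features of groups 1 to 8, 2 were higher, 5 lower and the median log2 fold change was -0.24. The 2 features of hoxa3a went opposite ways. One was lower at -3.85, with 12 counts against 220, and the other was not apart at 1.21. Of the 7 features of groups 9 and 10, 4 were lower and the median was -1.61. Of the 9 features of groups 11 to 13, 8 were lower and the median was -6.61, or -6.23 with the feature that had no count in the anterior-like set placed at its bound. As a description over 35 features that share the same 12 libraries, paralogue number and log2 fold change had a Pearson r of -0.78 and a Spearman rho of -0.79. In groups 11 to 13, all features but hoxd11a had only 0 to 80 counts over the anterior-like set. They met the count filter through the posterior-like libraries, so the sizes of their changes and of the r depend partly on the floor.

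**Figure D3:**
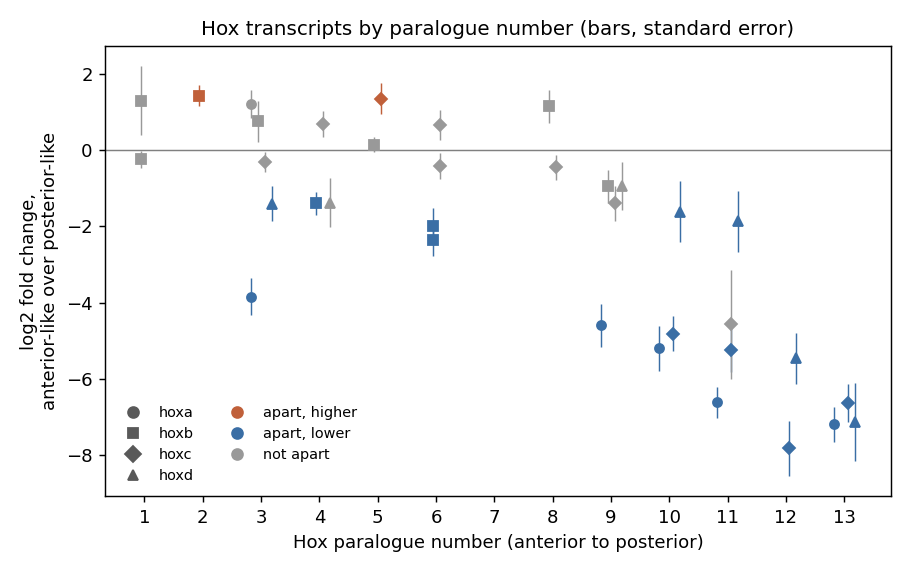
Log2 fold change, anterior-like over posterior-like, of the 35 Hox features against their paralogue number, 1 to 13. Points are coloured where the sets were apart and grey where they were not. Groups 1 to 8 lie between -3.85 and 1.42 and groups 11 to 13 between -7.82 and -1.87. Fitted values of features with 0 or 1 count in the anterior-like set depend on the prior count.

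Hoxa13b (chr1:14473999-14475659) had 0 to 0.781 CPM (median 0.238) in the anterior-like and 33.1 to 61.0 CPM (median 41.0) in the posterior-like libraries, a log2 fold change of -7.19 (SE 0.46) that was -7.93 without control replicate 2. Hoxc13a (chr15:4619683-4623873) had 0.244 to 1.30 CPM in the anterior-like and 33.1 to 178 CPM in the posterior-like libraries, and hoxa11b had 0 to 0.336 CPM against 9.63 to 13.1 CPM. Hoxc12a received 1 count over the whole anterior-like set and 829 over the posterior-like set. Hoxd13a received no count in the anterior-like set and 209 in the posterior-like set, so it was at least 75.3-fold lower, taking 3 counts over the set as the floor. At the other end of the clusters hoxb2a was higher, at 3.03 to 7.56 CPM in the anterior-like and 1.37 to 2.24 CPM in the posterior-like libraries. Hoxd10a and hoxd11a were less divided than their HoxA counterparts hoxa10b and hoxa11b. Hoxd10a had 0 to 16.1 CPM in the anterior-like and 22.4 to 34.7 CPM in the posterior-like libraries, and hoxd11a had 0.137 to 20.2 CPM against 29.99 to 59.8 CPM.

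Among genes of secretory and hormone cells, 4 of 6 goblet cell features were lower and none higher, or 2 of 6 lower without high-frass replicate 4. Agr2, which folds mucins, had 27.9 to 83.0 CPM in the anterior-like and 109 to 203 CPM in the posterior-like libraries, a log2 fold change of -1.44. Atoh1b, a factor of the secretory lineage, had 13.9 to 24.7 CPM in the anterior-like and 31.2 to 78.2 CPM in the posterior-like libraries, a log2 fold change of -1.04 that passed the limit narrowly and was -0.82 without high-frass replicate 4. Of 13 enteroendocrine features 2 were higher and 2 lower at a list median of -0.20, beside 5.52% higher and 6.43% lower over all features tested. With at least 10 counts in every library, 0 of 6 were higher and 1 lower. The members below are therefore given as single genes. Ghrl, which encodes the hormone ghrelin, had 7.62 to 17.1 CPM in the anterior-like and 0.0521 to 0.357 CPM in the posterior-like libraries. Insl5a, a gene of the hormone insulin-like 5 that marks colonic cells in mammals, had 19.9 to 76.4 CPM in the anterior-like and 114 to 198 CPM in the posterior-like libraries, a log2 fold change of -1.68, and its paralogue insl5b was lower too, at 0.51 to 1.99 CPM against 2.07 to 26.3 CPM.

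Of 17 ion and water transport features 2 were higher and 5 lower at a list median of -0.12, beside 5.52% higher and 6.43% lower over all features tested. Aqp8a.2, a water channel, had 115 to 387 CPM in the anterior-like and 471 to 1342 CPM in the posterior-like libraries. The chloride channel gene cftr had 54.6 to 92.7 CPM in the anterior-like and 128 to 205 CPM in the posterior-like libraries, and the proton channel gene otop2 had 75.4 to 146 CPM against 275 to 413 CPM. The aquaglyceroporin aqp10a was higher, at 13.9 to 2198 CPM in the anterior-like and 1.33 to 5.81 CPM in the posterior-like libraries.

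Among the features furthest apart were several that no list held. Enpp7.2, named for alkaline sphingomyelinase, had 183 to 389 CPM in the anterior-like and 0.354 to 2.29 CPM in the posterior-like libraries. Alp3, an alkaline phosphatase, had 2.35 to 490 CPM in the anterior-like and 0.104 to 0.856 CPM in the posterior-like libraries. Only low-frass replicate 1 and high-frass replicate 4, at 427 and 490 CPM, had over 3.64 CPM. The log2 fold change of alp3 was 7.95 (SE 1.94), or 4.74 without high-frass replicate 4. On the lower side, LOC108279015 had 21.6 to 74.2 CPM (median 31.9) in the anterior-like and 3311 to 9251 CPM (median 5438) in the posterior-like libraries, a log2 fold change of -7.15. Nos2b, an inducible nitric oxide synthase, had 1.51 to 24.7 CPM in the anterior-like and 91.7 to 1075 CPM in the posterior-like libraries, a log2 fold change of -5.54 (SE 0.74). Without single libraries this was -6.24 (without control replicate 3) to -4.93 (without high-frass replicate 4). Of the 12 higher and 12 lower features with the largest changes among those apart with a mean of 50 CPM or more, 8 on each side had only locus-type names, for which no role can be given.

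Markers of other cell types were compared in the same way, beside 5.52% higher and 6.43% lower of all features tested. A count of 1 in a list of 15 or 20 lies near that share. Smooth muscle and stroma had 0 of 11 features apart (median 0.10), and acta2, smooth muscle actin, had 4381 to 12160 CPM in the anterior-like and 6152 to 11447 CPM in the posterior-like libraries. The B cell list had 0 of 5 apart, at a median of -1.16, with 1 lower without low-frass replicate 1 or 3. The T and NK cell list had 2 of 12 lower, cd8a (6.07 to 13 CPM in the anterior-like, 20.1 to 51.4 CPM in the posterior-like libraries) and cd28. Of 15 macrophage and granulocyte features only mpx, the myeloperoxidase of neutrophils, was lower, at 2.48 to 18.9 CPM in the anterior-like and 29.5 to 191 CPM in the posterior-like libraries. The number lower in this list was 4 of 16 without control replicate 1, and 3 without control replicate 3, control replicate 4, high-frass replicate 4 or low-frass replicate 4. The summed macrophage and granulocyte markers were 1074 to 1600 CPM in the anterior-like and 1690 to 2384 CPM in the posterior-like libraries. Hepatocyte markers had 0 of 23 apart (1 higher without high-frass replicate 2 or control replicate 3) and summed to 24.7 to 217 CPM in the anterior-like and 29.3 to 201 CPM in the posterior-like libraries. The interferon-stimulated list had 0 of 10 apart, with 1 lower without low-frass replicate 3. Of the 20 proliferation features only olfm4.1, related to a stem cell marker in mammals, was lower, although the list median was -1.46. That count was 5 without control replicate 3 or high-frass replicate 3, 2 without low-frass replicate 4, and 0 without control replicate 2, high-frass replicate 4, low-frass replicate 1 or low-frass replicate 2. For the replication licensing gene mcm5 the sets overlapped through a single library, as 5 anterior-like libraries had 1.17 to 10.3 CPM, control replicate 3 had 38.1 CPM, and the posterior-like libraries had 21.4 to 109 CPM.

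Exocrine pancreas transcripts moved with the division in part. The 7 acinar features other than spink4 summed to 6285 CPM in low-frass replicate 1, 27038 CPM in high-frass replicate 4, 9739 CPM in control replicate 2, 2889 CPM in low-frass replicate 2, 130 CPM in low-frass replicate 4 and 38.4 CPM in control replicate 3. In the 6 posterior-like libraries the same sum was 21.8 to 48.9 CPM. Prss1, a trypsinogen, had 11 to 9016 CPM (median 1435) in the anterior-like and 5.95 to 15.7 CPM (median 8.26) in the posterior-like libraries, with overlap of the sets through control replicate 3. The part of pancreatic tissue in the other differences was not tested. A comparison without the 4 anterior-like libraries that had over 1000 CPM of these transcripts was chosen after seeing the data. With low-frass replicate 4 and control replicate 3 alone against the 6 posterior-like libraries, 713 features were apart and higher and 860 apart and lower. Of these, 505 and 555 were shared with the counts over all 12 libraries. Lack of overlap is easier to meet with fewer libraries, and features without overlap over all 12 could hardly overlap here. The counts therefore say little. No anterior-like high-frass library was left, so the diet-adjusted fold changes of this comparison rest on control and low-frass libraries. In low-frass replicate 4 and control replicate 3, at 130 and 38.4 CPM of acinar transcripts, fabp2 had 3931 and 2643 CPM. The genes followed in this comparison leave out some given above, such as soat2, mttp and cftr. Of those followed and called apart over all 12 libraries, atoh1b, cd8a, insl5a and olfm4.1 were not apart in it. Here insl5a had a log2 fold change of -0.88 and cd8a one of -0.91. Slc10a2 had -2.54 and cubn -7.98, and fabp2 had 7.78 and slc15a1a 7.66. Alp3 went from 7.95 over all 12 libraries to 2.73.

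Over all features apart, control replicate 3 lay nearer to the posterior-like libraries than any other member of its set. On a scale from 0 (the posterior-like median of a feature, on log2 CPM) to 1 (the median of the other anterior-like libraries), its median position was 0.875 over the 593 higher features and 0.819 over the 691 lower features. The other anterior-like libraries stood at 0.976 to 1.09 and at 0.992 to 1.05. Over the 40 listed absorption genes that were higher, low-frass replicate 2 stood lower, at 0.925, than control replicate 3, at 0.943. Control replicate 3 was the lowest anterior-like library for 218 of the 593 higher features and the highest for 260 of the 691 lower features. A feature had entered these sets only where this library, like the others, lay beyond every posterior-like value, which moves its positions towards 1. Features at posterior-like levels in it, such as mcm5, were left out. Without this library in the fit 725 features were apart and higher and 825 apart and lower. Within the sets, its position was above 0.75 for 417 of the higher and 414 of the lower features. It was between 0.25 and 0.75 for 172 of the higher and 272 of the lower features. Its log2 CPM over all 10742 features had an r of 0.953 to 0.978 with the other anterior-like libraries and of 0.921 to 0.945 with the posterior-like libraries, given as a description.

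**Figure D4:**
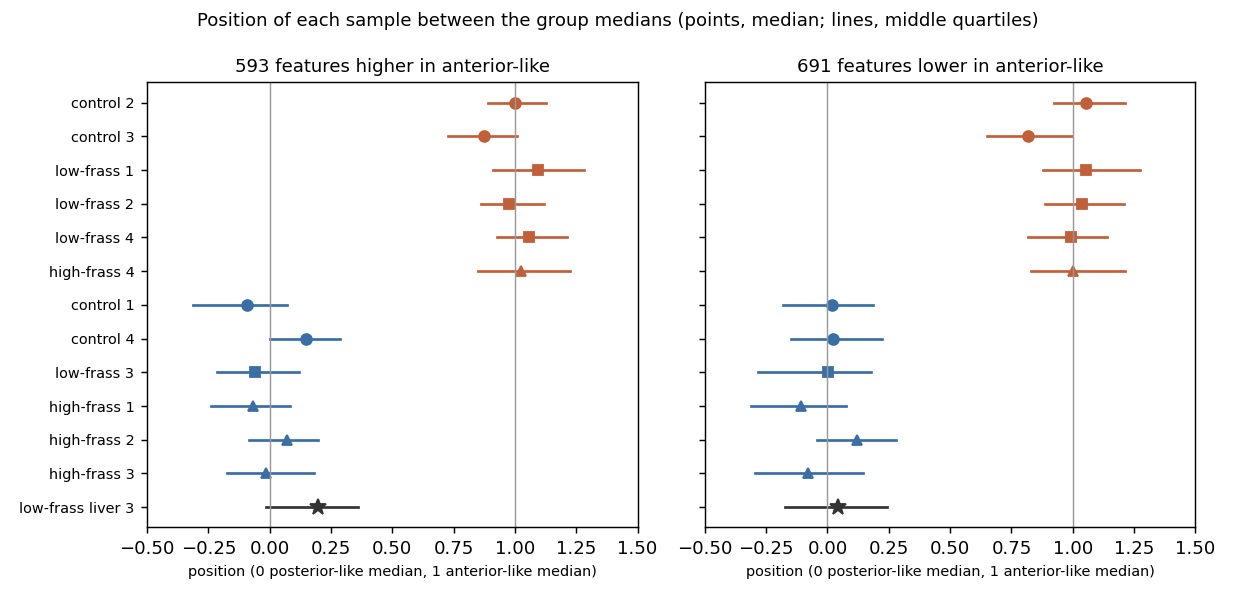
Median position of each intestine library between the posterior-like median (0) and the anterior-like median (1), over the features higher (593) and the features lower (691) in the anterior-like set, each library set against the medians of the others. Circles are control, squares low-frass and triangles high-frass libraries. Control replicate 3, at 0.875 and 0.819, is the anterior-like point nearest to the posterior-like libraries, which lie between -0.107 and 0.150.

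The place of control replicate 3 was uneven across genes. Its bile acid transporter slc10a2 was at position 0.128, and its hoxd10a, hoxd11a, hoxa9b and hoxa10b were at 0.198, 0.357, 0.458 and 0.506. Hoxd10a and hoxd11a were not particular to this library, since low-frass replicate 2 (12 and 17.8 CPM) and high-frass replicate 4 (16.1 and 20.2 CPM) had levels like its own (15.9 and 14.2 CPM). Insl5a stood at 0.460 and nos2b at 0.578. The absorptive genes were near the other anterior-like libraries, with rbp2a at 0.955, slc15a1a at 0.863, gata4 at 0.864 and fabp2 at 1.01. Cubn was at 1.13 and hoxa13b at 1.11, so neither of these genes was raised towards the posterior-like levels. Other lysosomal genes were spread, with ctsh at 0.531, man2b1 at 0.544, amn at 0.623 and glb1 at 0.681, but neu1 at 0.874 and naga at 0.950. The endocytic and lysosomal list summed to 14065 CPM in this library, the highest sum of the anterior-like set. By the measure that chose the sets, mogat2, this library was not near the limit, at 386 CPM against the 347 CPM of low-frass replicate 1. Of the posterior-like libraries, control replicate 4 had the highest median position over the higher features (0.150) and high-frass replicate 2 over the lower features (0.120).

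Some features also varied more among the anterior-like libraries than among the posterior-like ones. Of 2496 features averaging 50 CPM or more, 41 varied over 16-fold within the anterior-like set and 7 within the posterior-like set. The typical spread was similar, with a median SD of log2 CPM of 0.343 in the anterior-like and 0.320 in the posterior-like set. The most variable were acinar transcripts, which were high only in some of the anterior-like libraries. The next pattern, chosen after the values were seen, was that fabp6 was high in low-frass replicate 2 (1804 CPM), control replicate 3 (7262 CPM) and high-frass replicate 4 (3532 CPM) and low in low-frass replicate 1 (35.0 CPM), control replicate 2 (39.4 CPM) and low-frass replicate 4 (27.4 CPM). Hoxd10a separated the same libraries, at 12, 15.9 and 16.1 CPM in the first 3 and at 0.291, 1.73 and 0 CPM in the other 3. Hoxd11a did so as well, at 17.8, 14.2 and 20.2 CPM against 0.219, 1.99 and 0.137 CPM. The selecting gene did not make this division, since mogat2 was 347 CPM or more in all 6 libraries.

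**Figure D5:**
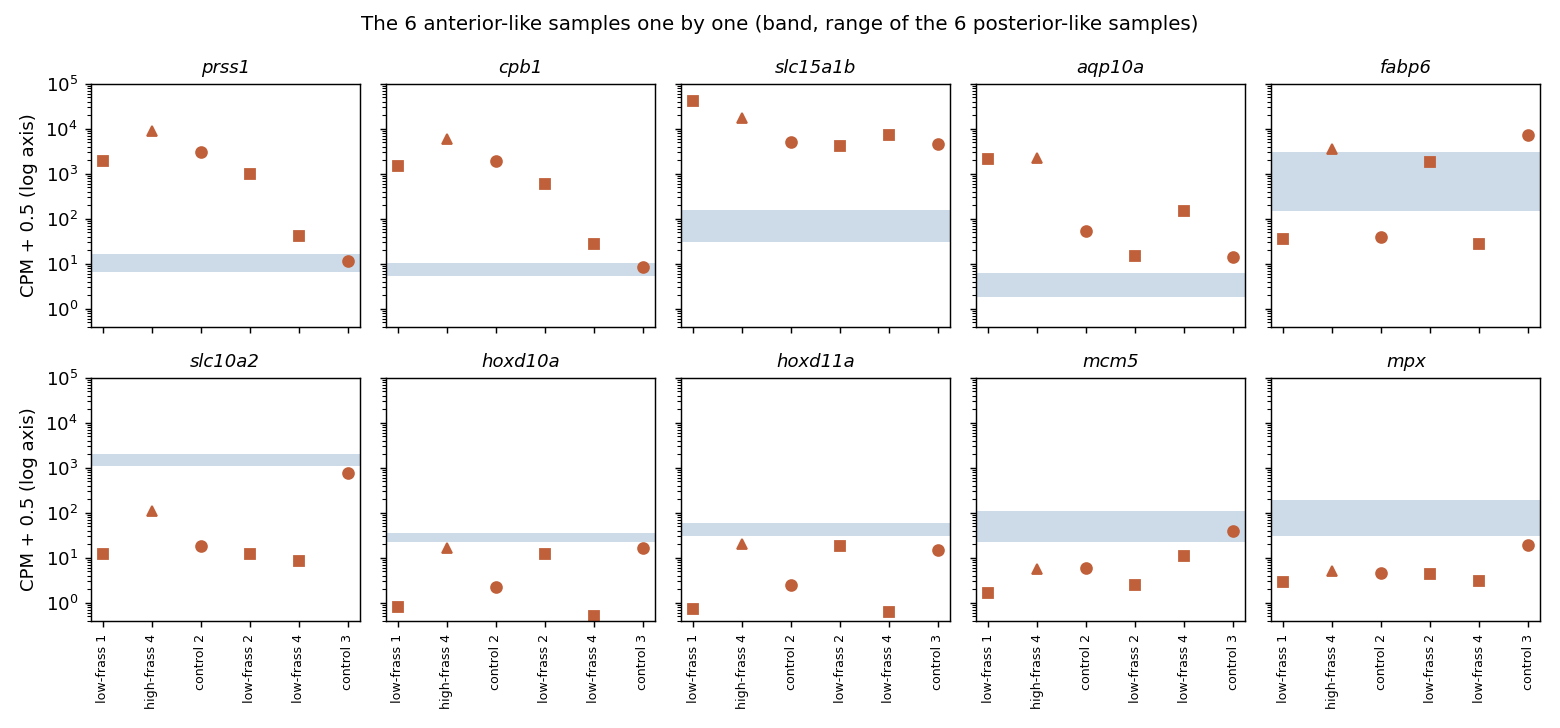
CPM on a log axis (0.5 added) of genes that varied among the 6 anterior-like libraries, with the posterior-like range as a shaded band. Circles are control, squares low-frass and triangles high-frass libraries, and the libraries keep 1 order in every panel. Fabp6 runs from 27.4 to 7262 CPM over the 6 libraries, and aqp10a reaches 2106 and 2198 CPM in low-frass replicate 1 and high-frass replicate 4.

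Another pattern, likewise chosen after the values were seen, joined low-frass replicate 1 and high-frass replicate 4. Aqp10a had 2106 and 2198 CPM in these libraries and 13.9 to 149 CPM in the other 4. Alp3 had 427 and 490 CPM in them and 2.35 to 3.64 CPM in the other 4. LOC108280999 had 25586 and 27526 CPM in them and 233 to 1257 CPM in the other 4, and ranged from 18.2 to 68.4 CPM in the posterior-like libraries. These libraries also held pancreatic transcripts, at 6285 and 27038 CPM. Control replicate 2 had 9739 CPM of pancreatic transcripts, 54.3 CPM of aqp10a and 2.69 CPM of alp3. The part of pancreatic tissue in this pattern was not tested.

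The liver of the same pools gave a comparison that the selection did not use. The livers of the anterior-like pools (6 libraries) were set against those of the posterior-like pools (4 libraries), with diet as a covariate. The study's removal of high-frass and low-frass liver replicates 3 left no posterior-like low-frass liver. The 3 low-frass livers thus informed the spread but not the fold changes. These rested on control replicates 2 and 3 against 1 and 4, and on high-frass replicate 4 against 1 and 2. Of 7539 features 0 were called (0% at an adjusted p under 0.05, edgeR quasi-likelihood test with Benjamini-Hochberg adjustment), and 270 had an unadjusted p under 0.05, against 377 expected from uniform p-values. The smallest adjusted p was 0.955. DESeq2 called 0 as well, with 275 at an unadjusted p under 0.05. The median size of the log2 fold change was 0.24 in the liver and 0.47 in the intestine. The intestine value comes from the libraries that mogat2 divided and from another set of features (10742), so these medians are not measured alike. Leaving out high-frass liver replicate 4, which left the contrast to the 4 control livers, gave 15 calls, ppp1r3b and gpr157 among them. With no filter on low counts the same 10 livers gave 69 calls of 17475 features. The count of 0 thus holds for the filtered features with all 10 livers, where the smallest adjusted p from DESeq2 was 0.0944, and says nothing of differences smaller than the test could find.

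Low-frass liver replicate 3, one of the livers that the study removed, went against its label. Hpxa, the plasma protein hemopexin of hepatocytes, had 451 CPM in it and 100536 to 189636 CPM in the kept livers. Slc10a2 had 2180 CPM in it and at most 0.729 CPM in the kept livers, cubn had 1534 CPM and hoxa13b had 13.1 CPM. Set on the same 0 to 1 scale, its median position was 0.196 over the 593 higher features and 0.043 over the 691 lower features. Of these features, 88.2% and 89.7% lay nearer to the posterior-like median. A sample lacking gut transcripts could also stand low over the higher features, as fabp2 had at most 0.530 CPM in the kept livers. No kept liver was placed on the scale. The r of low-frass liver replicate 3 over the 10742 features was 0.952 to 0.971 with the posterior-like libraries and 0.892 to 0.926 with the anterior-like ones. Not every marker lay within the posterior-like range. Fabp2, at 66.0 CPM, and rbp2a, at 180 CPM, were below every anterior-like library but above every posterior-like one. Other absorption genes were below every library of both sets, such as slc15a1a at 0.0623 CPM, slc15a1b at 6.85 CPM and slc34a2a at 0.187 CPM. Hoxa13b was below every posterior-like library and above every anterior-like one. This library was used in no comparison of groups other than an alternative fit of all 12 livers, which called 0 of 7506 features.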

How the data were processed

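RNA was sequenced from 24 pooled tissue samples, 12 of intestine and 12 of liver. Per the submitters' notes and the study's methods, the authors trimmed the reads with Trimmomatic 0.38, aligned them with STAR 2.7.8a to Coco_2.0 and deposited raw read counts from HTSeq 0.9.0, made over exons grouped by transcript, without strand and in union mode. Reads shared by transcripts of 1 gene were therefore mostly lost. Coding genes with 1 transcript held 92.2% of the counts and those with 2 or more held 1.66%, so that a low value of such a gene says little. Of 63022 features, 60685 were joined to a RefSeq gene of Coco_2.0 for names and coordinates, and overlapping or near-identical genes cannot be told apart.

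The members and the gene lists were chosen with earlier results of these data known. Libraries were grouped by mogat2 CPM. Fits were made in R 4.3.3 with edgeR 4.0.16 (TMM, quasi-likelihood, diet as covariate, filter minimum of 10 counts). The contrast between the sets was used as a description without a test, and 0.5 was added before taking log2 of CPM. The liver test was adjusted over 7539 features. An SE was obtained as the size of a log2 fold change over the square root of its F value. Lists were matched by symbol with paralogue suffixes, which also takes in related genes such as rrm2b. Named genes were mogat2, up to 6 apart members of each list by size of change with its defining members, the 12 features per direction with the largest changes at a mean of 50 CPM or more, and up to 10 liver calls per direction. Alternatives were other size factors, DESeq2 1.42.0, other filters, no diet term, a term for the pool letter, a replicate block, gene sums, a log2 limit of 2 and each library left out. A feature with 10 counts has a relative counting error of 31.6%, and 3 counts were taken as the floor. The procedure was tested on simulated data with fewer changed features than the intestine division, all changed by the same size. That test therefore does not cover a division as large as this one. The liver libraries removed in the study were left out of the liver test, save in an alternative fit of all 12 livers. Sequences and some listed genes are not reported here.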

Additional observations from a re-analysis of the deposited data

Results flagged for a closer look

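In 170 groups of 6 libraries tested for a library far from the rest, 7 were flagged, where chance alone flags about 1 in 20. Among the anterior-like libraries, npc1l1 was low in high-frass replicate 4, at 646 CPM with the next library at 1152 CPM. Mpx was high in control replicate 3, at 18.9 CPM with the next at 4.55 CPM. Hoxc12a had its only count of the set in low-frass replicate 1, at 0.0728 CPM with the next at 0 CPM. The median position of control replicate 3 over the lower features was 0.819, with the next library at 0.992. Among the posterior-like libraries, atoh1b was high in high-frass replicate 3, at 78.2 CPM with the next at 40.6 CPM. Fabp6 was low in the same library, at 149 CPM with the next at 1039 CPM. The summed CPM of the gut axis transcription factors was low in control replicate 1, at 2275 with the next at 2672. Outside the comparisons, slc10a2 reached 2180 CPM in low-frass liver replicate 3, where the kept livers had at most 0.729 CPM.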

How the results depend on the processing

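The counts of features apart, 593 higher and 691 lower, stayed within 1.5 times under the other size factors, DESeq2, both filters, no diet term, the pool letter, gene sums and the replicate block. A log2 limit of 2 left 286 higher and 291 lower. Leaving out each library in turn gave 598 to 725 higher and 694 to 825 lower, with the most in both directions without control replicate 3. With the replicate block, 571 were higher and 678 lower, of which 551 and 659 were shared. Same-numbered libraries had an r of deviations from their diet means of -0.704 to 0.513 in the intestine and of -0.225 to 0.322 in the liver. No steady pairing by replicate number showed. The intestine deviations also hold the division into sets, so these values cannot exclude a pairing. Of 2093 values of 101 named genes under 21 alternatives, 2052 moved by less than the spread within the sets and 41 by more. Among genes called apart, 0 values changed sign. Those genes had been chosen in the same libraries for lack of overlap, so a change of sign could hardly occur. The alternatives also share most or all of the libraries, so neither count tests the results anew. Genes not apart could change sign. Fabp6 went from 0.27 to -0.90 without control replicate 3. Hpxa went from 0.48 to -4.49 without the 4 libraries rich in acinar transcripts. In the liver, the count of 0 calls became 69 without a filter on low counts and 0 to 15 with each library left out. Without control replicate 3, 5 of 20 proliferation features were lower and 6 of 8 pancreas features higher. The hepatocyte list, at a median of 0.34, had -1.08 with 5 of 22 features lower without the 4 libraries rich in acinar transcripts. The cause of these shifts was not tested. Depth limits the features with few counts, such as hoxc12a and hoxd13a.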
